A study of Mus musculus with 6 samples.

Results

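The genes described here encode the machinery of oxidative phosphorylation, the last steps of aerobic energy production in the inner mitochondrial membrane. They were taken by symbol from the table of gene expression values, as every gene whose symbol begins with Nduf, Uqcr, Cox4 to Cox8 or Atp5, or is Sdha, Sdhb, Sdhc or Sdhd. The rule found 92 of the 24532 genes in the table, namely 45 with the prefix Nduf, 4 Sdh genes, 8 with Uqcr, 18 Cox genes and 17 with Atp5. By role they were 36 subunits of complex I, 4 of complex II, 8 of complex III, 20 subunits and isoforms of complex IV, 15 subunits of complex V, and 9 assembly or coupling factors. Ndufa4 and Ndufa4l2, which carry a complex I name, were placed with complex IV, where the NDUFA4 protein is now known to sit. The subunits encoded by the mitochondrial genome are not analysed here.

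Complex I takes electrons from NADH and complex II, which is also the succinate dehydrogenase of the citric acid cycle, takes them from succinate. Both pass them through coenzyme Q to complex III, and cytochrome c carries them on to complex IV, which reduces oxygen, while complexes I, III and IV pump protons and complex V, the ATP synthase, makes ATP from the gradient. Apart from complex II, each complex holds a core that carries the redox or catalytic centres and a set of small accessory subunits. The tubules of the kidney are among the tissues richest in these complexes because reabsorption of salt and solutes runs on ATP.

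RNA was sequenced from the kidney and ureter of mice at postnatal day 1 (PN1) that were labelled Ahnak KO or Ahnak WT. The KO mice carried a disruption of exon 5 of Ahnak, a gene for a very large scaffold protein, in every tissue, and RNA was taken from 2 to 4 kidneys or ureters; whether organs were pooled within a library is not stated. There were 2 libraries of KO kidney, 2 of WT kidney, 1 of KO ureter and 1 of WT ureter. The 2 ureter libraries have titles that call them kidney, and were taken as ureter from their source label.

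The library totals ran from 55744703 to 66095616 estimated counts in the kidneys and were 36410246 in KO ureter and 54985927 in WT ureter, where 3 counts correspond to 0.0454 to 0.0824 CPM (counts scaled to a common library total). The tissue labels were borne out by marker genes. The summed TPM, a level per transcript length that totals the same in each library, of 7 urothelial markers were 9674 in KO ureter and 9791 in WT ureter against 108 to 127 in the kidneys, and 5 markers of the loop of Henle and distal tubule were at 278 to 361 in the kidneys and at 0 in both ureters. Ahnak gave no clear check of the genotype labels. Its level was 20.6 and 22.1 TPM in the kidneys labelled KO and 27.7 and 24.7 in those labelled WT. The ureter labelled KO was at 88.0 TPM against 77.5 in WT ureter. Its estimated counts were 8414 and 7744 in the KO kidneys and 13058 and 11545 in the WT kidneys. In ureter they were 18895 in KO and 37439 in WT. As a part of the library total these counts were lower in KO in both organs, so counts and TPM went opposite ways in ureter. KO and WT below mean the labels. Libraries also differed in other ways. KO kidney 1 had 176348 counts of Xist and 0 of the Y-linked genes examined, while each other library had 17 to 36 and 8415 to 18055. The ribosomal RNA precursor Rn45s took 8.06% of the counts in KO ureter and 0.496 to 0.632% elsewhere. In whole-organ RNA, fewer cells of a type and less RNA per cell cannot be told apart.

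Members were read at high levels in both organs. Their summed level was 37179 and 35540 TPM in the KO kidneys, 34568 and 35814 TPM in the WT kidneys, 31013 TPM in KO ureter and 29142 TPM in WT ureter, so that both ureters lay below all 4 kidneys. On the TPM scale genes at large also read higher in kidney. With limma on log2(TPM + 1) the median log2 difference was 0.36 over all genes and 0.40 over the members. The difference in summed TPM varied by complex. The complex II subunits summed to 1123.82 to 1221.7 TPM in the kidneys and to 688 and 700 in the ureters, and the 15 subunits of complex V to 11019 to 12070 TPM in the kidneys against 9014 and 8833. The complex IV genes, by contrast, summed to 9449 to 9842 TPM in the kidneys, 9847 in KO ureter and 8708 in WT ureter, so the kidney range lay between the ureters. Of the 92 members, 88 had counts in every library. Cox6a2, Cox7b2 and Cox8c, isoforms known from striated muscle or testis, were at 0 in every library, which allows no more than the 3-count level given above, and Cox8b was at 0 in 3 kidney libraries.

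Kidney and ureter were compared with edgeR's quasi-likelihood test over all 6 libraries with genotype as a term. Fold changes are kidney minus ureter on the log2 scale after trimmed-mean (TMM) scaling, and a call is an adjusted p under 0.05 over the 16873 genes tested. Of the 89 members tested, 16 were higher in kidney and 20 higher in ureter. This is 17.98% and 22.5% of them, while 23.7% and 21.4% of all genes were called in those directions, so the members as a whole were called no more often than genes at large. Their median difference was 0.02, against 0.08 over all genes. The calls differed by class of subunit. All 4 classes with the redox or catalytic centres of complexes I, II, III and V (their cores, complex II and F1) had medians above that of all genes, at 0.24, 0.43, 0.34 and 0.13. In them 9 members were called higher in kidney (3 of 7, 3 of 4, 1 of 3 and 2 of 5) and 1, Atp5e, in ureter. A list of 20 core and redox subunits, which also holds structural ones such as Uqcrc1, Uqcrc2, Cox4i1, Cox5a and Cox5b and leaves out Atp5d and Atp5e, had 10 called higher in kidney and 1, Cox4i1, in ureter. The supernumerary subunits of complex I, the common subunits of complex IV and the Fo part of complex V made up 16 of the 20 calls in the other direction. These were 8 of 29, 4 of 12 and 4 of 6 members (27.6%, 33.3% and 66.7%), against 21.4% of all genes.

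**Figure D1:**
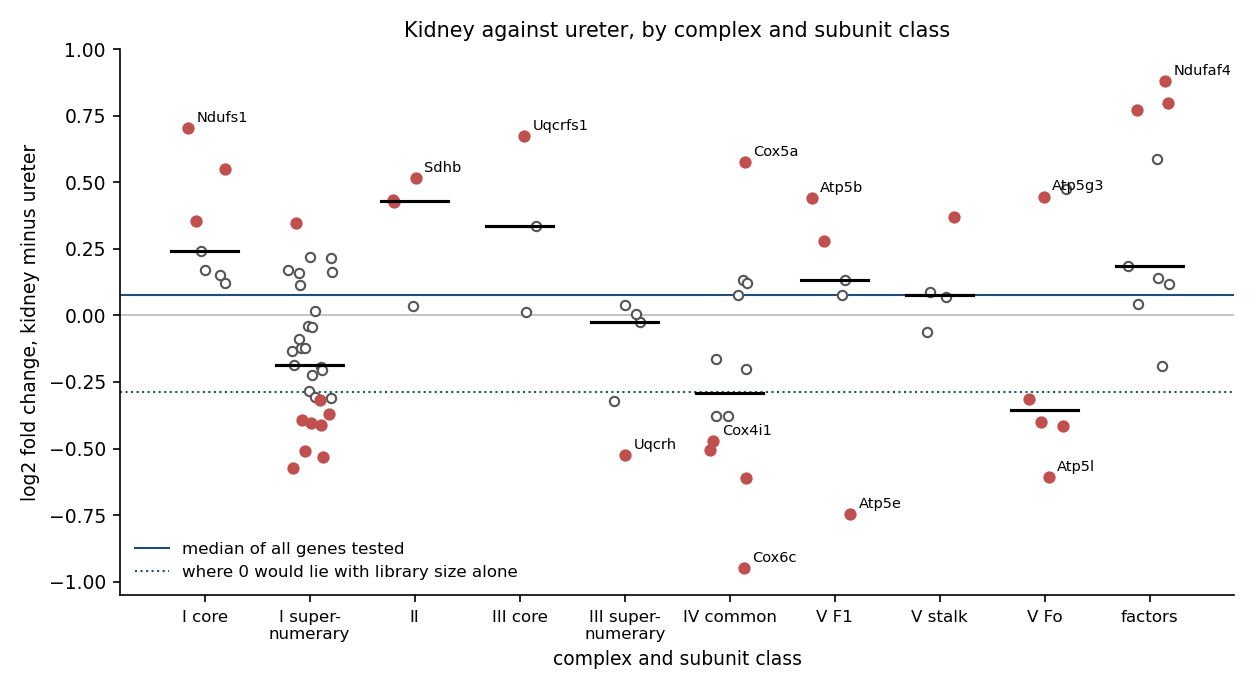
Each circle is 1 member, placed by its log2 fold change between kidney and ureter (kidney minus ureter, vertical axis) within its complex and class (horizontal axis), with filled circles for an adjusted p under 0.05, black bars for class medians and blue lines for the median of all genes (solid) and for the place of 0 under scaling by library size alone (dotted). The medians of complex II and of the cores of complexes I and III lie above the median of all genes. Those of the supernumerary subunits of complex I, the common subunits of complex IV and the Fo part of complex V lie below it. Isoforms of complex IV are not drawn.

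In complex I, the 7 core subunits all had values above 0, with a median of 0.24, and 3 of them were called. Ndufs1 (chr1:63143592-63176822 in GRCm38.p6), the largest subunit and the carrier of several iron-sulfur clusters, stood at 153 and 153 CPM in the KO kidneys, 150 and 156 CPM in the WT kidneys, and 96.3 and 91.3 CPM in KO and WT ureter. No ureter value came near the kidney range, and the difference was 0.70 ± 0.0856 (SE; edgeR adjusted p = 0.00111). Ndufs3, another core subunit of the peripheral arm, differed by 0.36 (edgeR adjusted p = 0.0178). It lost the call without KO kidney 2 (0.35, edgeR adjusted p = 0.0511), KO ureter (0.36, 0.0938) or WT ureter (0.35, 0.0821), while Ndufs1 was called whichever library was left out. The NADH-binding Ndufv1 and its partner Ndufv2 had values of 0.17 and 0.12 and did not pass, nor did the iron-sulfur subunits Ndufs7 (0.24) and Ndufs8 (0.15).

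Of the 29 supernumerary subunits of complex I, 8 were higher in ureter and 1, Ndufa9, was higher in kidney (0.35, edgeR adjusted p = 0.0287). Their median was −0.18. The largest change was that of Ndufa7, a small accessory subunit, which stood at 95.2 and 100.3 CPM in the KO kidneys, 90.4 and 89.99 CPM in the WT kidneys, and 162 and 120 CPM in KO and WT ureter (−0.58, edgeR adjusted p = 0.0054). Both ureters lay above the kidneys, but they differed more from each other than any pair of kidneys did. Ndufa3 (−0.53) and Ndufv3 (−0.51) followed, with edgeR adjusted p-values of 0.00793 and 0.0107. Without KO ureter the 3 were at −0.41, −0.52 and −0.46 and none passed (edgeR adjusted p = 0.0576, 0.0543 and 0.0800). Ndufa9 passed only when KO kidney 2 was the library left out, and its value was between 0.26 and 0.44 over all such fits.

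Complex II has no accessory set, and 3 of its 4 subunits were higher in kidney. Sdhb, the iron-sulfur subunit (chr4:140961271-140979198), stood at 183 and 175 CPM in the KO kidneys, 166 and 183 CPM in the WT kidneys, 138 CPM in KO ureter and 110.5 CPM in WT ureter. The 2 ureters lay below all kidneys, and the difference was 0.51 ± 0.109 (SE; edgeR adjusted p = 0.0103). Sdha, the flavoprotein that oxidises succinate, and the membrane anchor Sdhd both differed by 0.43, with edgeR adjusted p-values of 0.0173 and 0.0177. Without WT ureter the values of Sdhb, Sdha and Sdhd were 0.38, 0.35 and 0.29 and none passed (edgeR adjusted p = 0.0704, 0.0955 and 0.114), and without WT kidney 2 Sdha and Sdhd, both at 0.39, did not pass (0.0521 and 0.0502). The other anchor, Sdhc, was at 127 CPM in kidney and 124 CPM in ureter on average (0.03).

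In complex III the Rieske iron-sulfur protein, Uqcrfs1 (chr13:30540312-30545316), was the only call in the kidney direction. It stood at 206 and 203 CPM in the KO kidneys, 183 and 191 in the WT kidneys, and 132 and 114 in KO and WT ureter (0.67 ± 0.0894, edgeR adjusted p = 0.00159). The ureters lay well outside the kidney range. The structural core proteins Uqcrc1 and Uqcrc2 had values of 0.01 and 0.34, neither of which passed (edgeR adjusted p = 0.932 and 0.0616). Uqcrh, the acidic hinge protein near cytochrome c, went the other way, at 252 to 305 CPM in the kidneys, 468 CPM in KO ureter and 338 CPM in WT ureter (−0.52, edgeR adjusted p = 0.0114). In TPM Uqcrh stood at 1312 in KO ureter and 1082 in WT ureter, the latter inside its kidney range of 995 to 1156. Without KO ureter it was at −0.36 and did not pass (edgeR adjusted p = 0.0934), whereas Uqcrfs1 was called in each fit that left out 1 library.

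In complex IV the catalytic subunits are mitochondrially encoded, and the nuclear genes encode the subunits around them. Among the 12 subunits common to all tissues, 1 was higher in kidney and 4 in ureter, and the median was −0.29. Cox5a (chr9:57517328-57532427) stood at 139 and 145 CPM in the KO kidneys, 131 and 132 CPM in the WT kidneys, and 98.8 and 85.3 CPM in KO and WT ureter (0.58 ± 0.0867, edgeR adjusted p = 0.00268). Its partner in the early assembly module, Cox4i1, was at 369 to 458 CPM in the kidneys and 600 and 528 CPM in the ureters (−0.47, edgeR adjusted p = 0.0199). In TPM, Cox4i1 was at 1236 and 1239 in the ureters, inside its kidney range of 1068 to 1280, so its call belongs to the count scaling. The call was also lost without WT kidney 2 (−0.45, edgeR adjusted p = 0.0642), KO ureter (−0.41, 0.116) or WT ureter (−0.53, 0.0526). Cox6c (chr15:35931976-35938246), a small membrane subunit, stood at 238 and 247 CPM in the KO kidneys, 223 and 229 CPM in the WT kidneys, 576 CPM in KO ureter and 348 CPM in WT ureter. Both ureters were above every kidney, and the fold change was −0.95 ± 0.147 (SE; edgeR adjusted p = 0.00303). Its size rested on KO ureter, without which it was −0.63 (edgeR adjusted p = 0.0116). Cox7a2l, which also joins complexes III and IV, was higher in ureter (−0.50, edgeR adjusted p = 0.0121; −0.45 and 0.0771 without KO ureter). Cox5b (0.08), Cox6a1 (0.13), Cox6b1 (−0.16), Cox7a2 (−0.38), Cox7b (−0.20), Cox8a (0.12) and Ndufa4 (−0.38) did not pass.

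In complex V the soluble catalytic head, F1, had a median of 0.13 and the membrane part, Fo, one of −0.36. The catalytic beta subunit Atp5b (chr10:128083307-128090388) stood at 1341 and 1211 CPM in the KO kidneys, 1233 and 1300 CPM in the WT kidneys, and 973 and 902 CPM in KO and WT ureter (0.44 ± 0.086, edgeR adjusted p = 0.00761). The alpha subunit Atp5a1 differed by 0.28 (edgeR adjusted p = 0.0369), and Atp5o, which joins the head to the peripheral stalk, by 0.37 (edgeR adjusted p = 0.0232). The exception in F1 was Atp5e, the smallest subunit of the head (chr2:174461075-174464101), at 124 and 130 CPM in the KO kidneys, 105 and 111 CPM in the WT kidneys, and 208 and 185 CPM in the ureters (−0.75 ± 0.0834, edgeR adjusted p = 0.000789). Its ureter values lay far above the kidney range. Of the 6 Fo genes, 4 were higher in ureter, namely Atp5l (−0.61), Atp5j2 (−0.42), Atp5k (−0.40) and Atp5g2 (−0.31, but 0.07 with limma on TPM), and Atp5g3 was higher in kidney (0.45 ± 0.101, edgeR adjusted p = 0.0134). Atp5l, subunit g, which sits where 2 synthases join into a dimer, stood at 173 to 222 CPM in the kidneys, 349 in KO ureter and 266 CPM in WT ureter. In TPM it was at 1040 in KO ureter and 907 in WT ureter, the latter inside its kidney range of 726 to 934. Limma on TPM did not call it (−0.22, limma adjusted p = 0.0619). Atp5c1, the rotating shaft of the head, was at 0.08 and did not pass. Atp5b, Atp5e and Atp5l were called whichever library was left out. The calls of Atp5g3 (0.38, edgeR adjusted p = 0.0756) and Atp5k (−0.26, 0.179) were lost without WT ureter, that of Atp5k also without WT kidney 2 (−0.41, 0.0592), that of Atp5g2 without any 1 of the 6 libraries (−0.36 to −0.26), and those of Atp5a1, Atp5o and Atp5j2 in 5, 4 and 4 of the 6 such fits.

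Of the 9 factors, 3 (33.3%, against 23.7% of all genes) were higher in kidney. They were Ndufaf4 (0.88), Ndufaf5 (0.80) and Atp5sl (0.77), with edgeR adjusted p-values of 0.00575, 0.0203 and 0.00217. Ndufaf4 and Ndufaf5 are assembly factors of complex I. None of the 9 was higher in ureter, where 21.4% of all genes were. Among 40 assembly factors outside the symbol rule, 15% were higher in kidney and 22.5% in ureter. Ndufaf5 lost its call without WT kidney 2 (0.81, edgeR adjusted p = 0.0579) or KO ureter (0.55, 0.133).

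**Figure D2:**
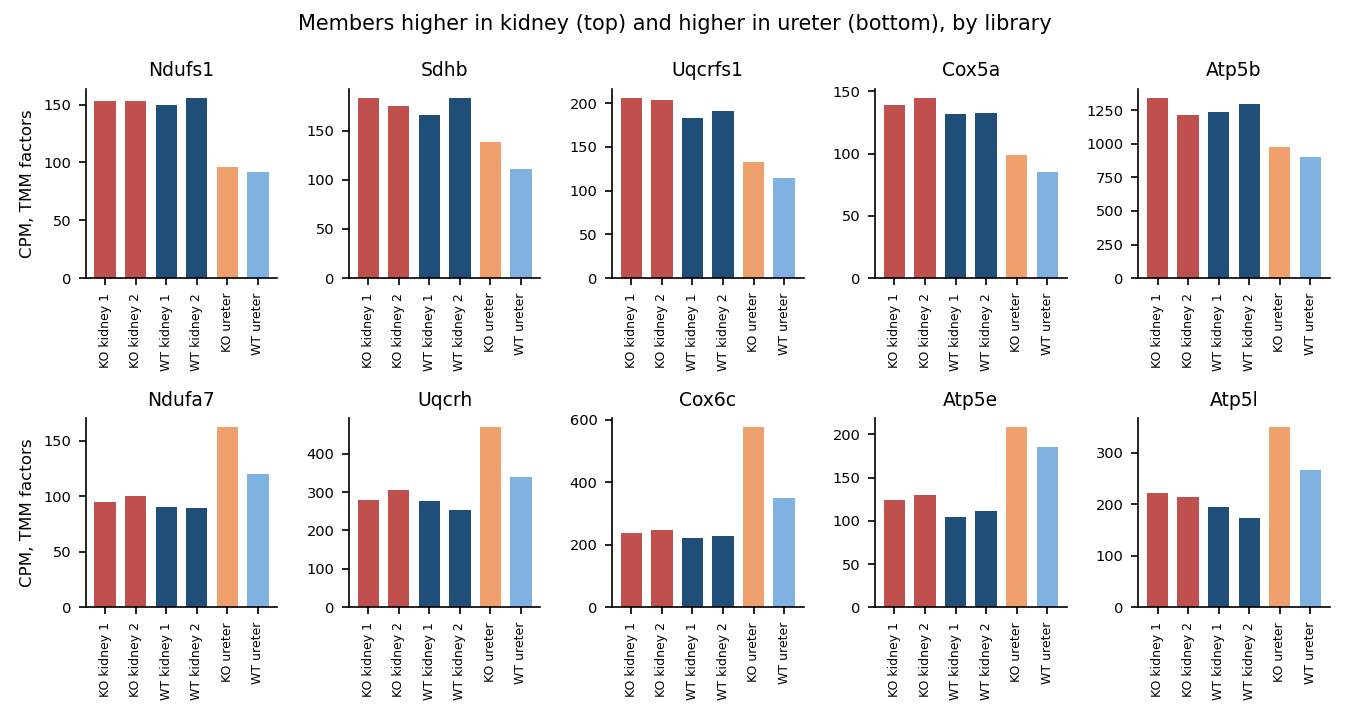
Bars give the CPM of 10 members in each of the 6 libraries (TMM-scaled, vertical axes from 0), with KO kidneys in red, WT kidneys in dark blue, KO ureter in orange and WT ureter in light blue. In the top row both ureters lie below all kidneys, for example Ndufs1 at 96.3 and 91.3 against 150 to 156 CPM, and in the bottom row both lie above them, with KO ureter the higher bar in every panel of that row.

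Where 0 lies in this comparison depended on the scaling. Scaling by library size alone raised the median of all genes by 0.29 and gave 38 members higher in kidney and 6 higher in ureter, against 36.2% and 14.1% of all genes. With limma on log2(TPM + 1) the counts were 50 and 3, against 43.7% and 13.7% of all genes. All 16 members called higher in kidney were called so under 5 other scalings and tools (DESeq2 size factors in edgeR, library size alone, limma on TPM and on FPKM, and the DESeq2 Wald test), while of the 20 called higher in ureter only 3 were, namely Atp5e, Cox6c and Cox8b. Cox8b had almost no counts in kidney and could enter the test only through the ureters, so its call adds nothing here. Library size, TPM and FPKM moved the median of all genes toward kidney by 0.29, 0.28 and 0.28, and the DESeq2 settings hardly moved it. The contrast of 16 and 3 therefore follows the direction of that shift and does not show that the kidney calls are firmer. With limma on TPM the values of Atp5g2, Ndufb3 and Ndufc2 turned positive (0.07, 0.07 and 0.02). A scaling shifts all genes alike, so the differences between classes do not depend on it by construction. The median of the complex I core lay above that of its supernumerary subunits by 0.43, and by 0.36 to 0.60 when each library was left out in turn. For F1 over Fo the difference was 0.49 (0.41 to 0.50), and for complex II over the common subunits of complex IV 0.72 (0.65 to 0.81). The calls also leaned on single ureter libraries. Without KO ureter 13 members were called higher in kidney and 6 higher in ureter (15.6% and 14.1% of all genes), and without WT ureter 9 and 16 (20.6% and 16.7%).

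Transcript length ran alongside the split. The subunits higher in ureter are mostly short transcripts and those higher in kidney longer ones. Across the 75 subunits, the fold change between kidney and ureter had a Spearman correlation of 0.58 with the length of the gene's transcript, given as a description over genes that share the same 6 libraries. It was 0.58 over the 36 genes of complex I and 0.66 over the 15 of complex V, but 0.26 over the 8 of complex III, 0.11 over the 12 common subunits of complex IV and −0.80 over the 4 of complex II. The median fold change rose from −0.32 in the 23 subunits of up to 600 nucleotides, through −0.09 and 0.12, to 0.28 in the 7 of over 2000. Other genes with an average log2 CPM of at least 5 showed the same order, from −0.47 over 48 genes to 0.07 over 5427, though their correlation with length was 0.10 over 7054 genes. The 79 cytosolic ribosomal protein genes tested, which are short as well, had a median of −0.60 and 68 were called higher in ureter. The lengths are annotation values, and for some genes they depart from what the deposited counts and TPM imply. In KO kidney 1, Ndufab1 (3479 nucleotides) had 4282 counts at 190 TPM, and Ndufa8 (861 nucleotides) had 4188 counts at 202 TPM. The part of transcript length in the split between core and accessory subunits was not tested.

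**Figure D3:**
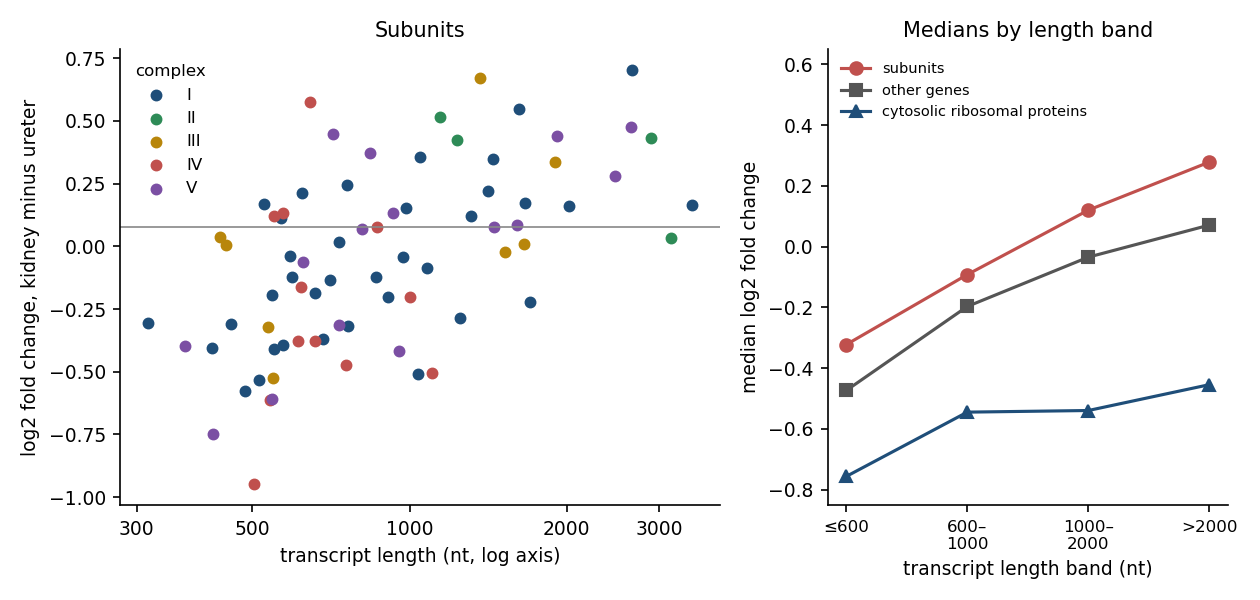
Left, each point is 1 subunit, with transcript length in nucleotides (log axis) against log2 fold change (kidney minus ureter), coloured by complex, and the grey line is the median of all genes, 0.08. Right, median fold change by length band for subunits, other genes with an average log2 CPM of at least 5 and cytosolic ribosomal protein genes; all 3 series rise with length, and the subunits lie above both other series in each band.

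The promoters of all 6 Fo genes are shown as an example of 1 part of a complex with members called in both directions. Such parts were also found in complexes I and IV and in F1, and Fo was chosen after the values were seen. The sequences are the 250 bases before the annotated start in RefSeq (GRCm38.p6), read 5′ to 3′ on the gene's strand, with capitals for matches to the searched motifs. Atp5g3 was higher in kidney, Atp5g2, Atp5k, Atp5l and Atp5j2 were higher in ureter and Atp5g1 was not called. The Atp5g3 window lies inside the span of its gene (chr2:73908447-73912464), before a start other than the outermost one.
Atp5g3, chr2:73911327-73911576, minus strand: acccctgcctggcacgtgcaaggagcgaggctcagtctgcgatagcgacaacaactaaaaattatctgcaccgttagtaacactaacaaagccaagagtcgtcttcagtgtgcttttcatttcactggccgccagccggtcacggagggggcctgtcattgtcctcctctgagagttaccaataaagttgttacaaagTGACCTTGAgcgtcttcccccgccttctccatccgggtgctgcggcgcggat
Atp5g2, chr15:102671048-102671297, minus strand: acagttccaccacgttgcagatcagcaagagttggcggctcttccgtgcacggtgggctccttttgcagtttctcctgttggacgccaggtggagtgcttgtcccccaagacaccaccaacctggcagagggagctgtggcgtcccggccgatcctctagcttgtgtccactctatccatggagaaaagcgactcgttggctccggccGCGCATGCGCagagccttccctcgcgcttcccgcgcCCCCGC
Atp5k, chr5:108434400-108434649, minus strand: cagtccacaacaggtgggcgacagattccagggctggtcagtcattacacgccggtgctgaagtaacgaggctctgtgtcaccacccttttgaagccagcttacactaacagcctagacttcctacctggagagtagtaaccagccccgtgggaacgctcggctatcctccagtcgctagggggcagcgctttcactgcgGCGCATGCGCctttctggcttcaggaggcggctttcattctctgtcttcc
Atp5l, chr9:44920743-44920992, minus strand: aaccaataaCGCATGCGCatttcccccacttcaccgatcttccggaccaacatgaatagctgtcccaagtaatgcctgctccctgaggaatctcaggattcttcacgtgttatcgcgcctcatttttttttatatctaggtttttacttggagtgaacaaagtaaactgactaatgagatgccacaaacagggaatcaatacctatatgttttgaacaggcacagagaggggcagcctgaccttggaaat
Atp5j2, chr5:145191542-145191791, minus strand: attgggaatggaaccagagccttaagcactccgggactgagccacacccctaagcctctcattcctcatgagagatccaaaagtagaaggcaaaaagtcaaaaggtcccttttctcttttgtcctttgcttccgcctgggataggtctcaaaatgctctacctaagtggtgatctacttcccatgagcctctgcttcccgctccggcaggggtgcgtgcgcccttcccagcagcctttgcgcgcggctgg
Atp5g1, chr11:96075632-96075881, minus strand: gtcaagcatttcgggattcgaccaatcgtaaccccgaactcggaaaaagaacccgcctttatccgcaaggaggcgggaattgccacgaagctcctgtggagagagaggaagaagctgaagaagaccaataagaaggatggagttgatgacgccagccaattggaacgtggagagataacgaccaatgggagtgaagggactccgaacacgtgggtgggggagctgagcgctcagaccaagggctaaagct

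The searched letters were GCGCATGCG for NRF1, CCGGAAGT for ETS factors such as GABPA, AAGATGGC for YY1, TCAAGGTCA for ESRRA and GGGGCGGGG for SP1, each on both strands, in windows of 250 bases before and 50 after the start. NRF1, GABPA and ESRRA are known regulators of nuclear genes for respiratory subunits. The NRF1 letters read nearly the same on both strands, so the run GCGCATGCGC in Atp5g2 and Atp5k is a pair of overlapping matches, and the capitals at the end of Atp5g2 are the part of an SP1 match that runs across the start. Of the 76 members with an entry, 10 (13.2%) held the NRF1 letters against 1.95% of 27025 genes, and 11 (14.5%) the YY1 letters against 3.19%. For ETS the shares were 6.58% and 4.31%, for SP1 17.1% and 12.9%, and for ESRRA 2.63% and 0.466%. The NRF1 letters were in 2 of 13 members called higher in kidney and 3 of 16 called higher in ureter. The ESRRA letters were in Atp5g3 and Sdhd, both higher in kidney. Among the Fo genes Atp5j2 held the YY1 letters and not those of NRF1, and Atp5g1 held none of the 5 motifs. The YY1 match of Atp5j2 begins 23 bases after the start, beyond the printed bases, so its sequence shows no capitals.

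Regulators of mitochondrial biogenesis were read in the same fit. Of 14 tested, 8 (57.1%) were higher in kidney and none in ureter, with a median of 0.43. Of all genes 23.7% and 21.4% were called in those directions. The coactivators Ppargc1a (2.29) and Ppargc1b (1.44) and the nuclear receptors Esrrg (3.97) and Esrrb (5.90) had the largest values, while Esrra (−0.09) and Yy1 (0.03) were near 0. Of the 14, 1 was at 0 TPM in KO ureter. The fold change of a gene near 0 in ureter has no firm size, and such a gene enters the test through the kidneys. Of 16 genes of the citric acid cycle and pyruvate dehydrogenase, 6 (37.5%) were higher in kidney and 1 (6.25%), Pdha1, in ureter (median 0.30). Among the 78 mitochondrial ribosomal protein genes, 5 (6.41%) were higher in kidney and 8 (10.3%) in ureter (median −0.02). Among 40 assembly factors outside the symbol rule the counts were 6 (15%) and 9 (22.5%). Of 12 genes for mobile carriers and coenzyme Q synthesis 3 (25%) were higher in kidney. For fatty acid oxidation 3 of 16 (18.8%) were higher in kidney and 4 (25%) in ureter, and for glycolysis 3 of 16 (18.8%) were higher in kidney.

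Several members are alternatives for 1 position in a complex. The c-ring of the ATP synthase is encoded by Atp5g1, Atp5g2 and Atp5g3, whose mature proteins are the same. Atp5g2 gave 32.3 to 36.8% of their summed TPM in the kidneys, 45.5% in KO ureter and 50.1% in WT ureter, and Atp5g3 47.5 to 50.1% in the kidneys and 39.3% in each ureter. The ureters lay outside the kidney range for both genes. For complex IV, Cox4i2, which replaces Cox4i1 in lung and low oxygen, gave 1.39 to 1.81% of the pair in the kidneys and 1.03 and 1.63% in the ureters. Cox8b, a heart and muscle form, had 0, 0, 0 and 4 counts in the kidneys, 30 in KO ureter and 143 in WT ureter. Its level moved with 14 striated muscle markers, whose summed TPM were 20.2 to 21.7 in the kidneys, 455 in KO ureter and 950 in WT ureter, and the part of muscle cells in the Cox8b level was not tested. Cox7a1, the other striated muscle form read here, did not follow them, at 11.2 to 24.7 TPM in the kidneys, 6.17 TPM in KO ureter and 6.997 TPM in WT ureter (0.97, edgeR adjusted p = 0.12). Ndufa4l2, the paralogue of Ndufa4 known to be raised in low oxygen, was at 43.7 and 33.5 TPM in the KO kidneys, 31.7 and 44.8 TPM in the WT kidneys, 37.2 TPM in KO ureter and 100.3 TPM in WT ureter. KO ureter lay inside the kidney range, so the call in the tissue comparison (−1.11, edgeR adjusted p = 0.0283) rested on WT ureter, without which the value was −0.41 (adjusted p = 0.279).

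**Figure D4:**
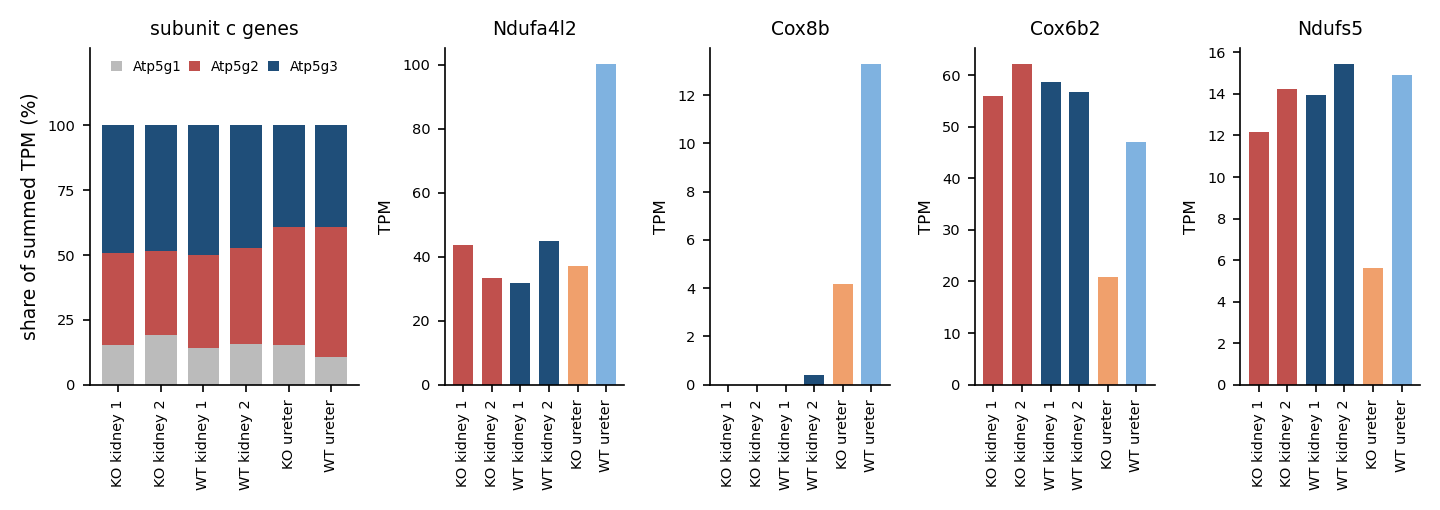
The first panel stacks the share of each of the 3 subunit c genes in their summed TPM (percent) by library, and the other panels give the TPM of Ndufa4l2, Cox8b, Cox6b2 and Ndufs5 (vertical axes from 0). Atp5g2 takes 45.5 and 50.1% in the ureters against at most 36.8% in the kidneys, and all 4 single genes are lower in KO than in WT ureter.

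KO and WT kidney were compared with 2 libraries each, by edgeR's quasi-likelihood test. Of the 88 members tested, 0 passed an adjusted p under 0.05, as did 0.0121% of all 16481 genes (2 genes). At an unadjusted p under 0.05 there was 1 member, Ndufa5 (1.14% of the members and 1.38% of all genes), and with the DESeq2 Wald test 0 passed and 5 had an unadjusted p under 0.05 (5.68% and 1.75%). Values for the members were mostly small and positive, with a median of 0.07 (−0.00 over all genes) and 69 of 88 above 0. In 26 members (29.5%) both KO kidneys lay above both WT kidneys, while 13.0% of all genes did so, and 1 member, Ndufa10, lay wholly below, against 13.0% of all genes. The cytosolic ribosomal protein genes had a median of 0.06 with 67 of 78 above 0. The class medians ran from 0.01 for complex II to 0.13 for the complex III core.

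Ndufa5, a subunit of the peripheral arm, stood at 86.4 and 78.7 CPM in the KO kidneys and 70.4 and 65.2 CPM in the WT kidneys. The pairs did not overlap, and the difference was 0.29 ± 0.116 (SE; edgeR adjusted p = 0.9999) with a 95% interval from 0.00 to 0.57. Ndufa13 (0.27) and Atp5e (0.24) came next by unadjusted p. In the other direction Ndufa10 stood at 114 and 124 CPM in the KO kidneys against 132 and 138 CPM in the WT kidneys (−0.18). Uqcrq (−0.19) and Atp5f1 (−0.20) each had 1 KO kidney far below the other 3 libraries, KO kidney 1 at 89.2 CPM for Uqcrq and KO kidney 2 at 243.5 CPM for Atp5f1. Without that library the values were 0.01 and 0.08. The 95% interval of the fold change reached a median of 0.27 to either side, and for 72 of the 88 members the whole interval lay within 0.5 of 0, so changes above that size are outside the interval for those genes.

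KO and WT ureter were 1 library each and have no replicate check. The log2 ratio of CPM with 0.5 added was above 0 in 73 of 89 members, with a median of 0.21 (−0.02 over all 16117 genes compared). No member was more than 2-fold higher in KO ureter, where 4.50% of genes were, and 3 were more than 2-fold lower, where 5.75% of genes were. All 8 complex III genes and all 12 common subunits of complex IV had ratios above 0. The largest were those of Cox7a2 (0.73), at 243 CPM in KO ureter and 147 CPM in WT ureter, and Cox6c (0.72), at 576 and 348. Atp5g1 (0.74) led complex V and Ndufv2 (0.46) complex I, followed by Ndufc2 (0.44), and in complexes II and III the highest were Sdhb (0.32) and Uqcrh (0.47). By library size alone the median was 0.02, with all genes shifted by −0.19, so the sign of single members in this pair was tied to the scaling. The cytosolic ribosomal protein genes had a median of 0.26, and KO ureter was the library with 8.06% of its counts in Rn45s.

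The 3 members past 2-fold were Ndufa4l2 (−1.22), Cox8b (−1.08) and Ndufs5 (−1.01), and Cox6b2 (−0.98) lay just inside. Ndufa4l2 was at 23.5 CPM in KO ureter and 55.4 CPM in WT ureter. Cox6b2, the testis form of Cox6b, was at 20.8 TPM in KO ureter, 47.1 TPM in WT ureter and 55.9 to 62.2 TPM in the kidneys. Ndufs5 was at 5.63 TPM in KO ureter and 12.2 to 15.5 TPM in the other 5 libraries, far under the other complex I subunits, of which the next, Ndufa11, had 52.7 to 65.5 TPM. Below 0 as well were Cox4i2 (−0.44), Ndufc1 (−0.31), Ndufs7 (−0.31), Sdhc (−0.15), Atp5k (−0.15), Ndufa8 (−0.06) and Ndufa10 (−0.00), with 5 of the factors. The factors had a median of −0.17, with Atp5s (−0.64) and Ndufaf3 (−0.46) lowest and Ndufaf4 (0.51) highest. Of 16 glycolytic genes 14 were lower in KO ureter, with a median of −0.36, 7 of 14 striated muscle markers were more than 2-fold lower, and the summed TPM of 7 smooth muscle markers was 4333 in KO and 5723 in WT ureter. Of 8 brown fat and adipocyte markers compared, 5 were higher and 3 lower in KO ureter, down to −0.70. Those more than 2-fold higher were Adipoq (7.06 against 0.49 TPM), Fabp4 (1310 against 747) and Plin1 (0.94 against 0). The ratio of Plin1 hangs on the 0.5 added. Ucp1, the defining brown fat gene, was at 0 and 0.21 TPM. The part of these genes and markers in the ratios of the members was not tested.

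**Figure D5:**
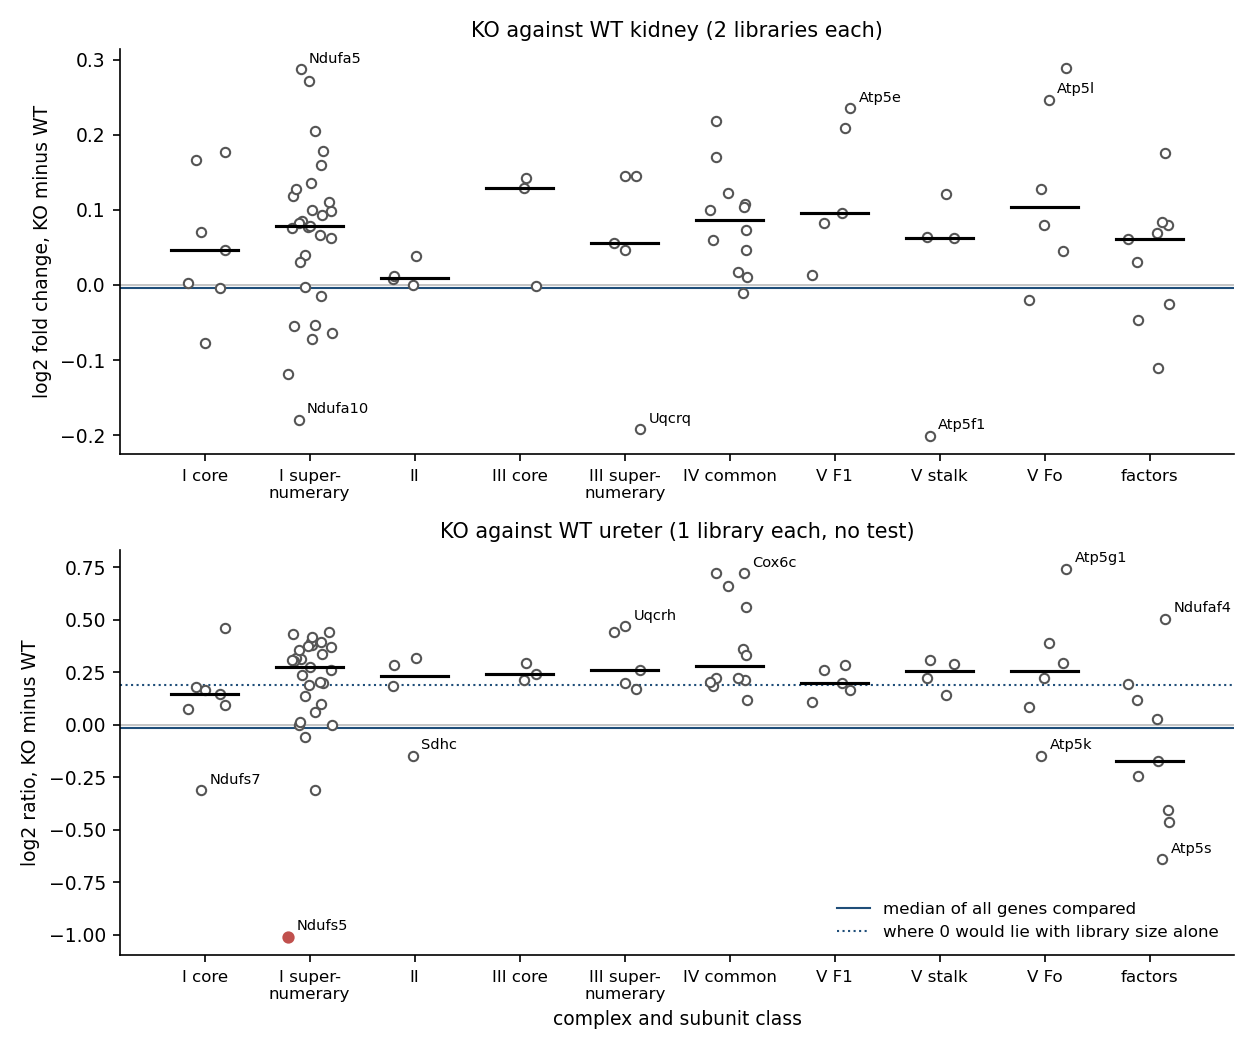
Circles are members by complex and class (horizontal axis), with the log2 fold change of KO against WT kidney above and the log2 ratio of KO against WT ureter below, black bars for class medians, a blue line for the median of all genes and filled circles for ratios past 2-fold in ureter. Most members lie above 0 in both panels, and none passed the test in kidney; isoforms of complex IV are not drawn, and the dotted line in the lower panel marks where 0 would lie under library size alone.

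Over the 88 members with a value in both organs, 60 were above 0 in both comparisons, 6 below 0 in both, 9 above 0 in kidney alone and 13 above 0 in ureter alone. The difference between the genotype effects in the 2 organs was tested as an interaction over all 6 libraries with edgeR. This fit leaves 2 residual degrees of freedom, all from kidney, so its p-values hold no spread between ureter libraries. None of 89 members passed, while 0.108% of all genes passed. At an unadjusted p under 0.05 there were 5 members (5.62%), a smaller share than the 12.4% of all genes. Of these 5, Cox6c (−0.62), Ndufa4 (−0.54) and Cox7a2 (−0.51) had lower KO-to-WT values in kidney than in ureter, and Ndufa4l2 (1.28) and Cox6b2 (1.10) higher ones.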

How the data were processed

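Bulk RNA-seq values of 6 mouse libraries were used as deposited by the authors, as estimated counts (whole numbers), FPKM and TPM per gene. The sources name different pipelines: the study's methods give Cutadapt, STAR, the GRCm39 build and Cufflinks, and the submitters' processing notes give Trimmomatic 0.38, HISAT2 2.1.0, StringTie 1.3.4b, edgeR and mm10. The RefSeq table used for coordinates is GRCm38.p6. Transcript lengths are medians over the GENCODE transcripts linked to the RefSeq accessions of a gene. Because StringTie and Cufflinks estimate counts, reads of near-identical copies could be divided differently. Libraries were stranded and poly(A)-selected. Tests used edgeR 4.0.16 (R 4.3.3; filterByExpr, TMM, Benjamini-Hochberg over all genes), with limma 3.58.1 and DESeq2 1.42.0 as alternatives. Standard errors are the log2 fold change over the square root of F. The ureter ratio needed at least 10 counts in the higher library. The sources do not say that libraries of a group came from separate litters, so p-values measure the spread between these samples. Those of the interaction rest on the spread between kidney libraries alone. Intervals and count limits cover counting and replicate error only. Scripts were tested on simulated data.

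Members and gene lists were chosen with earlier results of these data known. Genes named were the core, redox and isoform sets, the 3 largest calls per complex and direction between organs, the 3 smallest p-values per direction in kidney, the 2 largest ratios per complex and direction in ureter (at least 100 counts) and every member past 2-fold; Ndufa8, Ndufa9, Ndufa11, Ndufb3 and Atp5k were added after their values were seen. Same-numbered kidney libraries did not deviate together (correlation −0.28 over 16481 genes), so no pairing was used. The values of 1 member are not reported here.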

Additional observations from a re-analysis of the deposited data

Results flagged for a closer look

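Atp5k, subunit e of the ATP synthase membrane part, was flagged because its genotype values went opposite ways in the organs. Both KO kidneys (80.5 and 80.4 CPM) lay above both WT kidneys (70.6 and 76.8 CPM), and KO ureter (96.2 CPM) lay below WT ureter (106.7 CPM). The difference of the effects was 0.28 on the log2 scale, and the edgeR interaction test did not pass (adjusted p = 0.618), with 1 ureter library of each genotype.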

How the results depend on the processing

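Between organs, the counts of members higher in kidney and in ureter were 38 and 6 by library size alone (36.2% and 14.1% of all genes). They were 50 and 3 with limma on log2(TPM + 1) (43.7% and 13.7%) and 43 and 7 with limma on log2(FPKM + 0.1) (38.9% and 14.7%). Medians over members were 0.31, 0.40 and 0.31 against 0.02. Those over all genes were 0.36, 0.36 and 0.35 against 0.08, so the shift was one of genes at large. DESeq2 size factors, the DESeq2 Wald test, both count filters and the fit without genotype kept both counts within 1.5 times. The median was −0.023 over subunits only and −0.038 in KO libraries only. Leaving out each library in turn gave 9 to 15 members higher in kidney, 6 to 16 higher in ureter and medians from −0.034 to 0.051. Atp5g2 (0.071), Ndufb3 (0.067) and Ndufc2 (0.017) changed sign with limma on TPM. For these the cause was not tested.

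In kidney, 0 members were called between genotypes under every setting run, leaving out each library gave 0 to 0 calls and medians from 0.041 to 0.11, and Uqcrq (−0.43 to 0.011, positive without KO kidney 1) and Atp5f1 (−0.56 to 0.084, positive without KO kidney 2) changed sign. With the replicate number as a block 0 members were called and the median was 0.07; a crossed replicate block, added after the data were seen, called 0 members. In ureter the median ratio was 0.015 by library size alone, 0.0021 from FPKM and 0.021 from TPM, against 0.21.

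The limits are few libraries: 2 per genotype in kidney, and 1 per genotype in ureter, where genotype and library cannot be told apart and KO ureter was also the shallowest. The kidney and interaction fits each leave 2 residual degrees of freedom, all from kidney, and the tissue test compares 4 libraries with 2. Depth was not limiting for most members, but Cox8b, Cox7a1 and Ndufs5 had at most 256 counts in any library.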
